A study of Mus musculus with 7 samples.

Results

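CT010467.1 (ENSMUSG00000106106) is a mouse gene annotated as ribosomal RNA, and it was followed as 1 gene of the 55487 in the count table, 10311 of which passed the filter on low counts and were tested. It was chosen by its values in these libraries: it was well counted in each of them and its fitted level was higher with Fc-JAG1. The Fc-JAG1 contrasts are therefore given as a description with no test.

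The study sequenced nascent RNA of GFI1+ intra-aortic hematopoietic cluster (IAHC) cells, the CD31+cKIT+GFI1+ cells that bud from the dorsal aorta and hold the first hematopoietic stem cells. They were sorted from the aorta-gonad-mesonephros region of E11.5 embryos of the CD1/Gf1+ strain, which carries a Gfi1 reporter. All cells spent a night in compound E (compE), an inhibitor of γ-secretase, the protease that releases the active domain of Notch receptors, and were then washed. Sets of 300 to 400 cells were cultured for 4 h in methylcellulose with 0.3 mM ethynyl uridine, which marks new RNA, together with DMSO (washout, 3 libraries, embryos 1, 2 and 3), compE again (2 libraries, embryos 1 and 2), or recombinant Fc-JAG1, a Notch ligand (2 libraries, embryos 1 and 3). No group lacked the overnight inhibitor. The labels number the libraries by embryo, while the methods describe pooled embryos, so a library is not known to be 1 animal. A second Fc-JAG1 library is not analysed here.

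Eukaryotic cells make 18S rRNA, the RNA of the small ribosomal subunit, with RNA polymerase I. The enzyme reads tandem ribosomal DNA repeats into 1 long precursor in which 18S rRNA follows an external spacer and precedes an internal spacer and the rRNAs of the large subunit. Ribosomal RNA makes up most of the RNA of a cell. It carries no poly(A) tail, and most libraries are built to avoid it. Stray copies of the repeat lie outside the main arrays, and reads that match them are counted under the local gene name.

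CT010467.1 spans chr17:39846353-39848827 of GRCm38 on the minus strand, 2475 bases in all. Its longer transcript is a single exon of 1849 bases with 55.4% G and C. The 4 exons of the shorter transcript add up to 714 bases with 68.5% G and C, and all but the end of it lies outside the first. The ends of the longer transcript are shown because they give the identity of the gene. As annotated on the minus strand, it starts and ends as follows (GENCODE M21 transcript sequence), with the 20 terminal bases in capitals.

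first 60 bases, minus strand, chr17:39848142-39848201: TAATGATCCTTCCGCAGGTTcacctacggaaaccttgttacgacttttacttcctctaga
last 60 bases, minus strand, chr17:39846353-39846412: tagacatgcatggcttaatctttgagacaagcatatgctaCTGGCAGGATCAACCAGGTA

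Read from the other strand, the same bases give the familiar start and end of 18S rRNA, again with the terminal 20 bases in capitals.

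reverse complement of the last 60 bases, plus strand: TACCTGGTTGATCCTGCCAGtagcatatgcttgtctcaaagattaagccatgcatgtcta
reverse complement of the first 60 bases, plus strand: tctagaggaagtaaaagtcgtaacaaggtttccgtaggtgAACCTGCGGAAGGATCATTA

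The annotated transcript thus runs antisense to 18S rRNA, and the 18S-like sequence lies on the plus strand. RefSeq (GRCm38.p6) lists a pseudogene of the same length there, Rn18s-rs5. The library kit is not known to mark strand, and the strand setting of the counting is not given in the sources used here, so reads of 18S rRNA and of an antisense transcript cannot be told apart in these counts. The 626 bases of the gene beyond the longer exon lie on the side of the internal spacer.

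The labels call the molecule poly(A) RNA. The longest run of A on the 18S strand is shown because a poly(A) selection or an oligo(dT) primer acts on such runs. It had 6 bases, in capitals.

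longest A run with 20 bases on each side, plus strand, chr17:39847147-39847192: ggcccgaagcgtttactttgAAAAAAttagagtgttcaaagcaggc

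On the annotated strand the longest A run had 4 bases in the longer transcript and 6 in the shorter. Whether priming at any of these runs gave any of the reads was not tested.

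Other annotated genes crowd the locus. Gm42418, a lincRNA of 1831 bases on the plus strand, covers 74.0% of CT010467.1, and AY036118, a lincRNA of 923 bases on the minus strand, covers 37.3%. Gm26917 ends 11 bases before the gene on the plus strand, at the place of the external spacer. None of the 3 has a row in the count table, which holds the 55487 genes that the paper states. Bases of CT010467.1 that lie in no other annotated gene number 644 (26.0%). Of the 1800 windows of 50 bases, the read length, along the longer transcript, 1195 (66.4%) occur letter for letter in a Gm42418 transcript on the opposite strand and 874 (48.6%) in AY036118. Both genes lie over the longer exon, so these windows are the same genomic bases. The sharing follows from the overlap and shows no second place in the genome. No window occurred in a transcript of any other gene. A looser search with BLAST found 1 further gene, Slc22a19, with 68 aligned bases at 83.8% identity. The counting setting for reads that lie in several genes is not given in the sources used here. Without rows for these 3 genes, no read of the table was counted under their names. Only uniquely mapped reads were kept, so reads that match several places in the assembled genome could be counted nowhere. The counts are of reads that found 1 place in that assembly. Whether the assembly holds the ribosomal DNA arrays was not tested, so reads from the arrays may be among these counts.

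**Figure D1:**
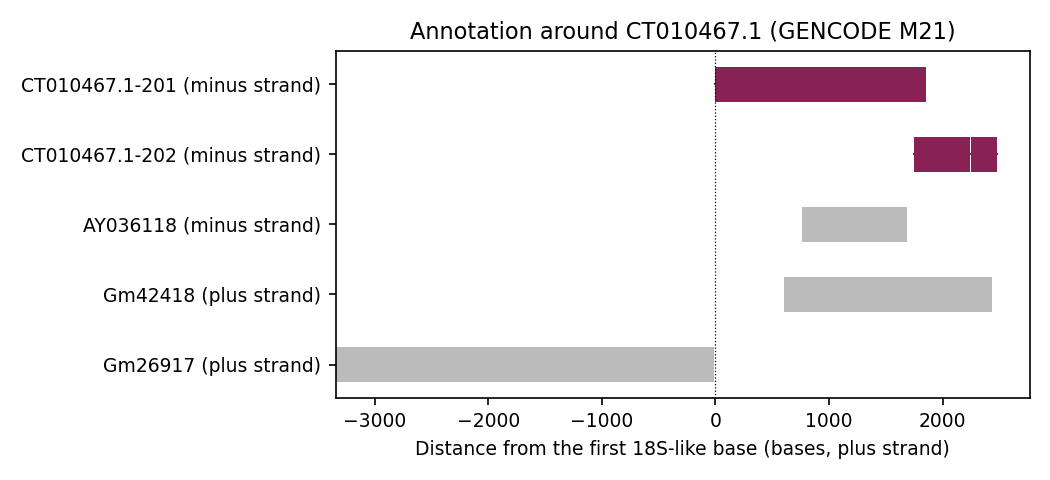
Annotated transcripts of CT010467.1 (purple) and neighbouring genes (grey) by distance in bases along the plus strand from the first 18S-like base. Gm42418 covers 74.0% of CT010467.1, and Gm26917 ends 11 bases before it.

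No other counted gene lay near. The nearest gene with a row in the count table, CT010467.2, an unprocessed pseudogene, was 34330 bases away and had no count in any library. The next, AC188608.1 at 71688 bases, had none either.

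The 7 libraries held 21652927 to 33974693 counts. The raw counts of CT010467.1 were 51438, 218925 and 28815 in washout 1, 2 and 3. In compE 1 and 2 they reached 175738 and 215799. In Fc-JAG1 1 and 3 they reached 200180 and 245768. Washout 3 was lowest and Fc-JAG1 3 highest. Washout 2, which received DMSO alone after the wash, lay above both compE libraries and above Fc-JAG1 1, so the groups overlapped.

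As a share of all gene counts, CT010467.1 took 0.238%, 0.728% and 0.0910% of washout 1, 2 and 3. The shares were 0.618% and 0.635% in compE 1 and 2. They were 0.612% and 0.933% in Fc-JAG1 1 and 3. In other words, 1 count in every 107 belonged to it in Fc-JAG1 3 and 1 in every 1099 in washout 3. Counting error was small beside these differences. The 95% Wilson interval ran from 0.0899% to 0.0920% in washout 3, and from 0.929% to 0.936% in Fc-JAG1 3. These intervals cover counting error only, since the reads carried no molecular identifiers.

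The group means were 0.352% ± 0.334 (SD, n = 3) for washout, 0.627% ± 0.0119 (SD, n = 2) for compE and 0.772% ± 0.227 (SD, n = 2) for Fc-JAG1. The washout libraries differed 8.01-fold among themselves, more than the 2.19-fold between the washout and Fc-JAG1 means. The compE libraries differed only 1.03-fold. In the order of shares, compE 2, compE 1 and Fc-JAG1 1 were neighbours within 0.612% to 0.635%, closer to each other than the libraries of either other group.

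compE and washout shares differed by 0.275 percentage points, and an exact two-sided permutation test over 2 against 3 libraries gave p = 0.60, where the smallest p this design allows is 0.20. With labels that do not say whether libraries came from separate litters, such a p measures only the spread between these samples.

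**Figure D2:**
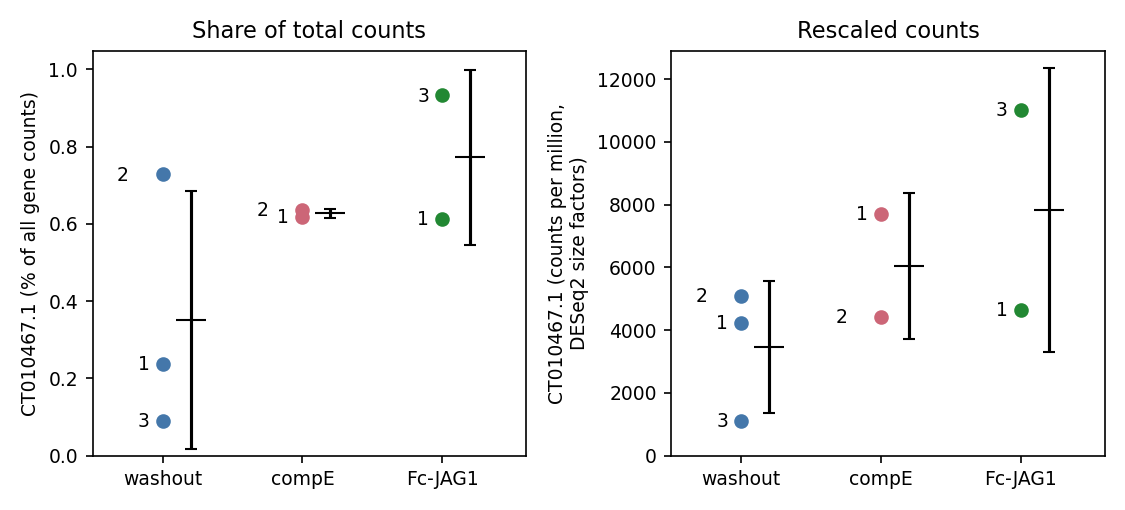
CT010467.1 as a percentage of all gene counts (left) and as counts scaled to a common library size with DESeq2 size factors (CPM, right). Each point is a library with its embryo number, and the bar beside it gives the mean and SD. Washout 2 lies above Fc-JAG1 1 in both panels, and washout 3 is lowest in both.

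Among all genes of the table CT010467.1 ranked 3rd by mean share of counts, at 0.551%. Above it stood mt-Cytb (1.56%) and mt-Nd1 (1.43%), which encode cytochrome b and a subunit of complex I in the mitochondrial genome. Below it came mt-Co1 (0.491%), a subunit of cytochrome oxidase, mt-Rnr2 (0.388%), the large mitochondrial rRNA, and Fth1 (0.366%), the ferritin heavy chain, followed by mt-Nd4 (0.348%) and mt-Nd5 (0.318%). It was the gene with the most counts in washout 2, compE 2 and Fc-JAG1 1, ranked 3rd in Fc-JAG1 3, 5th in compE 1 and 13th in washout 1, and was 80th in washout 3. Per kb of exon its mean level, 2233 CPM per kb (counts scaled to a common library size, per kb), ranked 8th, beside 2454 for mt-Rnr2 and 14932 for mt-Nd1. The counts were made over whole genes, so genes with introns can hold reads that this exon length leaves out.

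CT010467.1 had the top rank in the 3 libraries with the most genes. In the others its rank was lower and did not follow gene number. Of those, washout 3 held the most genes (14410) and gave the lowest rank. Washout 2, compE 2 and Fc-JAG1 1, 1 library of each group, had at least 1 count for 17205 to 17877 genes, and the other 4 libraries for 13215 to 14410. Among the 3 gene-rich libraries the shares were 0.728% (washout), 0.635% (compE) and 0.612% (Fc-JAG1), so Fc-JAG1 was lowest. Among the others they were 0.238% and 0.0910% (washout), 0.618% (compE) and 0.933% (Fc-JAG1), and there Fc-JAG1 was highest. Each class holds a single Fc-JAG1 library, so no test within a class was possible. The 37 mitochondrially encoded genes took 1.14% to 1.88% of the gene-rich libraries and 2.48% to 12.7% of the others. The part of gene number and mitochondrial share in the differences between groups was not tested.

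The size of the difference moved with the scaling. TMM, a scaling that compares trimmed log ratios between libraries, gave 2987, 6068 and 1027 CPM in washout 1, 2 and 3. For compE 1 and 2 it gave 6949 and 5569. For Fc-JAG1 1 and 3 it gave 5495 and 10410. With the size factors of DESeq2, the median ratio to an average library, the washout values were 4235, 5093 and 1099, the compE values 7703 and 4411, and the Fc-JAG1 values 4640 and 11020. Washout 1 had the smallest DESeq2 size factor, 0.515, and compE 2 the largest, 2.07, so this scaling raised the first and lowered the second. In the deposited log2 variance-stabilized values the order was the same as with DESeq2 size factors: Fc-JAG1 3 (17.79), compE 1 (17.43), washout 2 (16.92), Fc-JAG1 1 (16.79), compE 2 (16.72), washout 1 (16.66) and washout 3 (14.51).

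On each of these scales, and by total counts and upper quartile as well, Fc-JAG1 3 was highest, washout 1 and washout 3 were the lowest pair, and washout 2 was above Fc-JAG1 1. The place of compE 1 changed, from the fourth or the fifth by share, total counts and upper quartile to the second by TMM and DESeq2.

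Libraries of the same embryo number allow a ratio within a number. For embryo 3, Fc-JAG1 over washout was 3.09 as a log2 ratio of raw counts and 3.33 to 3.42 under the 4 scalings. For embryo 1, the ratio was 1.96 by raw counts, 1.40 by total counts, 0.88 by TMM, 0.89 by upper quartile and 0.13 by DESeq2 size factors. The difference in embryo 3 was thus nearly free of the scaling, and that in embryo 1 ran from close to none to over 1 log2 unit. In neither pair was washout above Fc-JAG1, while washout 2, which has no Fc-JAG1 partner, exceeded Fc-JAG1 1 on each scale.

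For compE over washout, embryo 1 gave log2 ratios of 1.77 by raw counts and 1.39, 1.22, 0.86 and 0.89 by total counts, TMM, DESeq2 and upper quartile. Embryo 2 gave -0.021 by raw counts and -0.20, -0.12, -0.21 and -0.22 by the same scalings. The 2 pairs therefore had opposite signs. The single pair of Fc-JAG1 and compE, embryo 1, gave 0.19 by raw counts, 0.0081 by total counts, -0.34 by TMM and -0.73 by DESeq2, so its sign turned with the scaling.

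**Figure D3:**
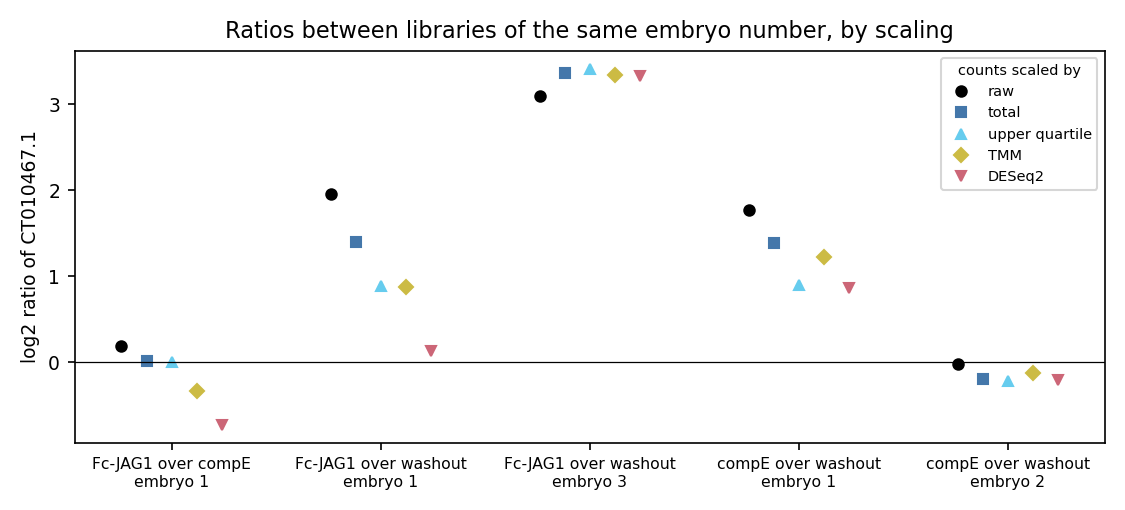
log2 ratio of CT010467.1 between libraries of the same embryo number, with a point for each scaling of the counts. Embryo 3 stays above 3 for Fc-JAG1 over washout, while embryo 1 runs from 0.13 to 1.96, and the compE pairs lie on opposite sides of 0.

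compE against washout did not itself pick the gene, but it uses the same 3 washout libraries as the contrast that did, so it is not independent of the choice. It was tested across all genes with edgeR's quasi-likelihood test, TMM and the embryo number as a block. CT010467.1 had a log2 difference of 0.93 (SE 0.31) with a Benjamini-Hochberg adjusted p of 1 in edgeR, so it did not pass. Of the tested genes, 30.1% had a larger log2 difference. edgeR called 0 of 10311 genes in this contrast (0%), with 271 at an unadjusted p under 0.05. DESeq2 called 584 higher (5.66%) and 378 lower (3.67%), and limma voom called 1. CT010467.1 was not among the DESeq2 calls, with a log2 difference of 0.75 (SE 0.91, adjusted p = 0.773 in DESeq2). The SE differed between tools. In edgeR it was taken as the size of the log2 difference over the square root of the quasi-likelihood F statistic. It is therefore not the same quantity as the DESeq2 SE, and it was 0.94 in edgeR's robust fit. Leaving out compE 1 turned the difference to -0.14, since embryo 2 is then the only pair.

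The Fc-JAG1 contrasts picked the gene and are described only. The fitted log2 difference of Fc-JAG1 from washout was 1.91 (SE 0.37), and 32.0% of tested genes had a larger one. The median over all tested genes was 0.44 in the same fit, so part of the tested table lay higher with this scaling. With DESeq2 size factors the difference was 1.56 against a median of 0.066, and with total counts it was 2.15 against a median of 0.71. Relative to the median gene, the difference was 1.47, 1.49 and 1.44 in these 3 fits. Not set against the median gene, the difference was 1.24 without the block and 3.17 with limma voom, and against it 1.41 and 2.56. The robust fit left the value at 1.91 with an SE of 1.14.

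A single pair carried the size. Without washout 3 or without Fc-JAG1 3, which leaves embryo 1 as the only pair, the difference was 0.51, under the median gene's 0.83 and 0.82 in the same fits. Without Fc-JAG1 1 it was 3.34. Fc-JAG1 differed from compE by 0.98 (SE 0.41), and this came to -0.042 without washout 3 or Fc-JAG1 3 and to 2.79 without Fc-JAG1 1. edgeR called 0 genes with Fc-JAG1 against washout (0%), with 526 at an unadjusted p under 0.05. DESeq2 called 1619 higher (15.7%) and 489 lower (4.74%), and limma voom called 84. Both Fc-JAG1 contrasts and the compE contrast share libraries and are not independent of each other.

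**Figure D4:**
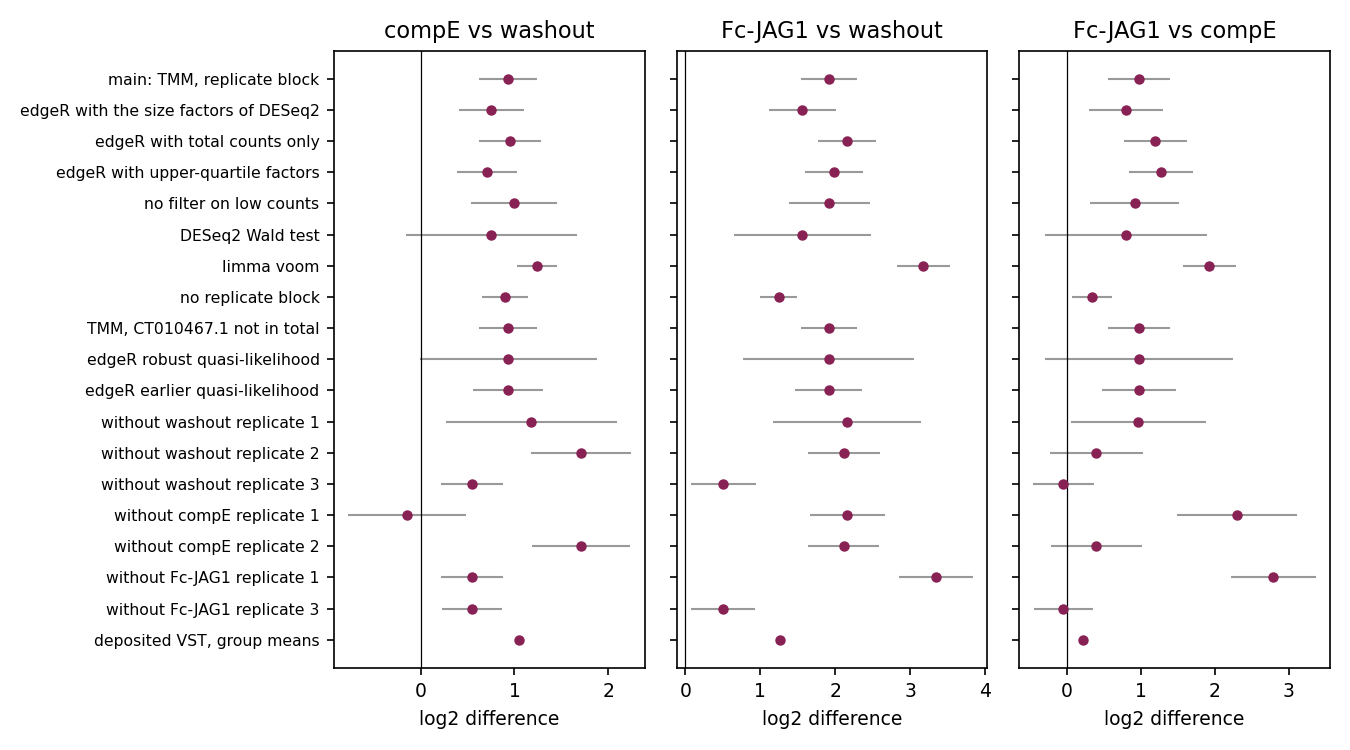
Fitted log2 difference of CT010467.1 in 3 contrasts under each processing choice, with the SE as a bar where one was obtained. The compE difference turns negative without compE replicate 1, and the Fc-JAG1 difference from washout runs from 0.51 to 3.34.

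Mitochondrial rRNA, which is made in the mitochondrion by a separate polymerase, ordered the libraries partly in another way. mt-Rnr2 had 156019, 36172 and 17871 counts in washout 1, 2 and 3. It had 201714 and 49986 in the compE libraries. The Fc-JAG1 libraries held 72319 and 195498. Its high libraries were the gene-poor ones other than washout 3. The count ratio of CT010467.1 to mt-Rnr2 ran from 0.330 in washout 1 to 6.05 in washout 2, so a single group held both extremes. mt-Rnr1, the small mitochondrial rRNA, had 1016, 967 and 1 counts in washout, 3821 and 149 in compE, with 1169 and 5864 in Fc-JAG1. Both mitochondrial rRNAs were lowest in washout 3, as CT010467.1 was, and mt-Rnr1 was also highest in Fc-JAG1 3. For compE against washout neither passed the test (log2 difference 0.52, SE 0.52, for mt-Rnr2 and 0.69, SE 2.71, for mt-Rnr1, adjusted p = 1 for both in edgeR).

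Other nuclear rRNA genes had few counts in the table. Reads that match several places were not kept, so few counts do not show little transcription. Of 354 genes annotated as nuclear rRNA, 7 had any count and 4 had at least 10 over all libraries. After CT010467.1 came n-R5-8s1 and Gm24601, also annotated as rRNA, both named here after their values were seen. n-R5-8s1 had 161, 383 and 0 counts in washout, 242 and 114 in compE, with 266 and 1398 in Fc-JAG1. Gm24601 had 100, 134 and 0 in washout, 159 and 62 in compE, with 85 and 521 in Fc-JAG1. Both were at 0 in washout 3 and highest in Fc-JAG1 3, the lowest and highest libraries of CT010467.1 and of mt-Rnr1 too. The other, n-R5s54, a 5S rRNA gene, had 97 counts in Fc-JAG1 1 and none elsewhere. By counting error alone, a count of 0 allows up to 3 counts. The spread between libraries was far larger. Nip7, an rRNA processing factor, had 0, 6449 and 24971 counts in washout, so a 0 does not show that a gene was off.

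Of 14 genes listed as ribosomal DNA or rRNA-like loci of the mouse genome, 6 had a row and 3 were tested, CT010467.1 among them. Lars2, the mitochondrial leucyl-tRNA synthetase, whose gene is often listed beside rRNA-like reads, had 941, 2808 and 164 counts in washout, 1828 and 2437 in compE, with 3500 and 2529 in Fc-JAG1. Washout 3 was again lowest. Cmss1 had 2, 2032 and 601 in washout, 18 and 1109 in compE, with 1054 and 411 in Fc-JAG1. Gm15564 had 36 counts at most, and Gm23935 and Filip1l had none. Of the 3 tested genes, edgeR and DESeq2 called none in either contrast, which with so few members is read as nothing beside the DESeq2 shares of all genes (5.66% higher and 3.67% lower with compE, 15.7% and 4.74% with Fc-JAG1). Of 11 rows for noncoding RNAs of RNA polymerase III, which makes 5S rRNA and tRNA, none was tested, and no library gave them more than 0.000619% of its counts.

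**Figure D5:**
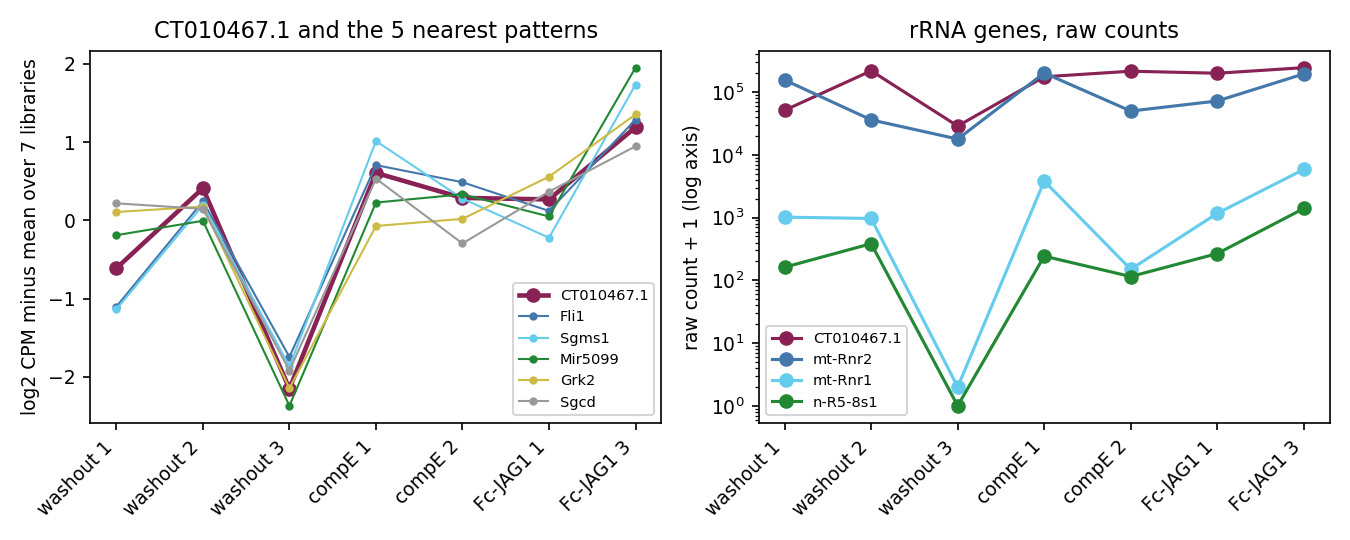
Left, log2 CPM of CT010467.1 and the 5 genes nearest to its pattern, each minus its mean over 7 libraries. Right, raw counts plus 1 of CT010467.1 and 3 other rRNA genes on a log axis, where washout 3 holds the lowest value of each; lines only join the points of a gene.

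The genes that make and process rRNA were counted as lists. Of 21 genes of the RNA polymerase I machinery, all tested, edgeR called none in compE against washout and the median log2 difference was -0.44, beside -0.097 for all tested genes. DESeq2 called 0 higher (background 5.66%) and 1 lower (3.67%). That gene was Polr1b, the second largest subunit of the polymerase, with 5499, 6152 and 5860 counts in washout and 4 and 6271 in compE (log2 difference -5.68, SE 1.78, adjusted p = 0.0228 in DESeq2, against an adjusted p of 1 in edgeR). Only compE 1 held the low count. Polr1a, the largest subunit, had 6350, 8389 and 1 counts in washout and 10099 and 7514 in compE. Ubtf, which shapes active ribosomal DNA, had 2861, 14608 and 5092 in washout, 3570 and 10887 in compE, with 9022 and 7143 in Fc-JAG1. Rrn3, the factor that brings the polymerase to its promoter, had 8694, 6910 and 5297 in washout, 3462 and 977 in compE, with 4617 and 2939 in Fc-JAG1. Its lower values in compE did not pass (log2 difference -2.16, SE 1.82, adjusted p = 1 in edgeR, and adjusted p = 0.143 in DESeq2). Polr1e, a further subunit, had 6177, 4151 and 0 in washout and 0 and 5026 in compE, and Polr1d, a subunit shared with RNA polymerase III, had 5687, 5170 and 2926 against 314 and 3615; neither passed in either tool.

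With Fc-JAG1 the machinery genes had a median of 0.16 in edgeR, beside 0.44 for all tested genes, and edgeR called none. DESeq2 called 4 higher (15.7% of all genes) and 0 lower (4.74%), and nothing is read from these counts, since the contrast picked CT010467.1. They were Taf1b, Twistnb, Polr1a and Polr2f. Taf1b, a part of the factor that selects the promoter, had 2, 1875 and 1 counts in washout and 1246 and 325 in Fc-JAG1. Polr1a had 8824 and 3974 in Fc-JAG1, and its washout count was 1 in embryo 3. Each of the 4 had a washout library with at most 2 counts.

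Of 86 rRNA processing factors tested, edgeR called none in either contrast. In compE against washout the median was -0.39 in edgeR, beside -0.097 for all tested genes. DESeq2 called 2 higher (Utp14a and Mettl5), where 5.66% of all genes were, and 2 lower (Rrp7a and Wdr12), where 3.67% were, so no more than the background. Mettl5, which methylates 18S rRNA, had 0, 496 and 1 counts in washout and 2107 and 1645 in compE. Utp14a, a part of the small subunit processome, had 5, 5773 and 2 in washout and 9324 and 4827 in compE. Wdr12, which serves in maturation of the large subunit, had 10599, 10631 and 4899 in washout and 185 and 8414 in compE, and Rrp7a had 4451, 2236 and 1738 against 0 and 1720. With Fc-JAG1 the median was -0.0062 in edgeR, beside 0.44 for all tested genes. DESeq2 called 12 higher (15.7% of all genes) and 3 lower (4.74%), and again nothing is read from these counts. Those with the smallest p were Nip7, Sdad1, Nat10, which acetylates 18S rRNA, and Mphosph10. Nat10 had 93, 5548 and 0 counts in washout and 9520 and 9095 in Fc-JAG1. Fbl, the methyltransferase of the box C/D particles that modify rRNA, had 0, 1855 and 2311 in washout, 2516 and 2194 in compE, with 3354 and 1641 in Fc-JAG1.

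The genes nearest to CT010467.1 in pattern were sought among the 3035 with at least 10 counts in every library, by the root mean square difference of log2 CPM centred on each gene's mean over the 7 libraries. They were Fli1 (0.27), Sgms1 (0.40), Mir5099 (0.41), Grk2 (0.42) and Sgcd (0.42), beside a median of 1.64 over the others. Fli1, an ETS factor of blood and endothelium, had 2419, 12880 and 2523 counts in washout, 12438 and 16378 in compE, with 11943 and 17368 in Fc-JAG1. Sgms1 makes sphingomyelin, Grk2 is a kinase of G protein-coupled receptors, Mir5099 is annotated as a miRNA, and Sgcd encodes a sarcoglycan. On the centred log2 CPM scale by which they were chosen, each had its lowest value in washout 3 and its highest in Fc-JAG1 3, as the choice favours. None of them appeared among the sequence matches to CT010467.1. The SD of CT010467.1 over the libraries was 1.09 on this log2 scale, beside a median of 1.31 over the 3035 genes, of which 1202 had a smaller SD.

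Markers were checked for the cells in the libraries. The 12 markers of GFI1+ IAHC and stem cells took 0.216% to 0.309% of each library. Kit, one of the sorted surface proteins, had at least 6381 counts in every library, Runx1 16525, Myb 1417 and Cd34 1811. The others were uneven. Pecam1, which encodes the sorted CD31, had 18 counts in washout 1 and 11 in Fc-JAG1 3 but 1186 to 6314 elsewhere. Gfi1, whose reporter was sorted on, was at 0 in washout 1, both compE libraries and Fc-JAG1 3. Procr was at 0 in all libraries but washout 2 and compE 2, Hlf had at most 5 counts in all but washout 2 and compE 1, and Cdh5 at most 3 in all but washout 1. Ptprc had 3 counts in washout 3, and Itga2b had 8 in washout 1. The 9 macrophage markers summed to 0.0373% to 0.0518% in washout, 0.00918% and 0.0414% in compE, and 0.0565% and 0.0135% in Fc-JAG1. Csf1r, the receptor of the macrophage growth factor, had at least 1018 counts in every library and Lyz2, a lysozyme, had 0 to 13012, while C1qa was at 0 in all but washout 2 and C1qb in all but compE 2. In compE against washout the 5 macrophage markers tested had a median log2 difference of -3.74 in edgeR, which called none, and DESeq2 called 3 lower (3.67% of all genes). The 9 erythroid markers summed to 0.00200% to 0.0534% in washout, 0.00222% and 0.0162% in compE, and 0.0143% and 0.00828% in Fc-JAG1, with Alas2 at 0 throughout. The 7 mesenchyme markers never passed 0.00157%. Their part in the level of CT010467.1 was not tested. In bulk libraries, fewer cells of a type and less RNA per cell cannot be told apart.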

How the data were processed

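Nascent RNA was captured from labelled cells, preamplified and sequenced as 50-base single reads. The authors trimmed reads with cutadapt 4.2, aligned them with STAR 2.7.8 to mm10 (GRCm38), kept unique matches and made raw gene counts with featureCounts (Subread 2.0.1) over whole genes. The authors also deposited a filtered count table and log2 variance-stabilized values from DESeq2 1.38.3. Of the deposited rows, 55227 had a GENCODE M21 name. The filter, at least 10 counts in 2 replicates, left 10311 genes.

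Depth ranged from 21652927 to 33974693 counts, so counting error was small for CT010467.1. Fits used edgeR 4.0.16 (quasi-likelihood, TMM, embryo number as block), with DESeq2 1.42.0 and limma 3.58.1 as alternatives, and were tested on simulated data. Genes were called at an adjusted p threshold of 0.05 where a compared condition also met the count minimum in 2 replicates. The block follows the embryo numbers of the labels, and deviations of same-numbered libraries correlated at -0.0854 to 0.0915. The log2 patterns used a prior count of 2. Sequences came from GENCODE M21 transcripts, searched with BLAST 2.17.0 at an E-value of 1e-05.

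The gene, the lists and the alternatives were chosen with earlier results of these data known. Genes named were CT010467.1, rRNA and rRNA-like genes, neighbours within 20 kb and in share of counts, the 5 nearest patterns, the 4 members of each rRNA list with the smallest DESeq2 p in each contrast, and Polr1a, Polr1b, Ubtf, Rrn3 and Fbl.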

Additional observations from a re-analysis of the deposited data

How the results depend on the processing

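For compE against washout, CT010467.1 stayed short of the threshold under the 17 alternatives with a test (adjusted p 0.554 to 1, in edgeR, DESeq2 or limma), and its log2 difference was 0.71 to 1.24 with every library kept. Leaving out 1 library gave -0.14 to 1.71, the negative value (-0.14) without compE 1. Leaving out 1 library gave 0.51 to 3.34 for Fc-JAG1 against washout and -0.042 to 2.79 for Fc-JAG1 against compE. limma voom moved the former to 3.17, and the cause was not tested. The deposited variance-stabilized values gave group differences of 1.04, 1.26 and 0.22 in the 3 contrasts.

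Without the replicate block, which drops the pairing by embryo, the differences were 0.90, 1.24 and 0.35. The 1 gene that edgeR then called with Fc-JAG1 was CT010467.1 itself, which was also among the 84 calls of limma voom. This contrast picked the gene, so neither call is a test of it. The main edgeR fit, the robust edgeR fit and DESeq2 did not call it. Calls were 962 (compE) and 2108 (Fc-JAG1) in DESeq2, 1 and 84 in limma voom, and 0 in the other edgeR alternatives, which include leaving out each library (0 to 0).

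With other denominators the compE share was 0.643% (filtered table), 0.717% (without the 100 top genes), 1.05% (genes with 10 counts in every library) and 0.654% (without mitochondrially encoded genes), since each is a smaller total, and the Fc-JAG1 share was 1.26% over genes with 10 counts in every library. The compE minus washout share was 0.281 to 0.478 percentage points under these, and 0.144 to 0.463 with 1 library left out. Group shares with 1 library left out were 0.164% to 0.483% (washout), 0.618% to 0.635% (compE) and 0.612% to 0.933% (Fc-JAG1). The robust and earlier edgeR fits, the total without mitochondrially encoded genes, the deposited variance-stabilized values and TMM with CT010467.1 out of the total were added after seeing the data.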
